A study of Mus musculus with 12 samples.

Results

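The 5 nuclear long non-coding RNAs Miat, Malat1, Neat1, Tug1 and Meg3 were followed through small RNA libraries of mouse medulloblastoma cells. They were chosen by symbol, to see whether the excess of Miat counts that accompanies 1 guide was shared by other nuclear transcripts. The 5 genes are among 3942 symbols of the deposited tables, and they hold 10 of 4529 transcript entries. Miat has 2 entries with identical counts in every library and was counted once; Tug1 and Meg3 have 3 overlapping entries each, which were summed.

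The cells are stem-like medulloblastoma cells from the cerebellum with the genotype Math1-Cre; SmoM2, in which Cre driven by Math1 switches on an activated Smoothened in the granule neuron lineage. All 12 libraries share this genotype. The 4 control libraries carry sgGal4, which targets Gal4, a yeast factor that mice lack, and are labelled WT. Of the 4 libraries labelled Miat knockdown, 2 carry sgMiat-6 (6-1 and 6-2) and 2 carry sgMiat-96 (96-1 and 96-2). Of the 4 labelled Mtdh knockdown, 2 carry sgMtdh-1 (1-1 and 1-2) and 2 carry sgMtdh-2 (2-1 and 2-2). The labels give no time points and leave unsaid whether libraries with 1 guide are separate cultures or clones, so p-values measure the spread between libraries, which may be technical.

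Long non-coding RNAs of this kind stay largely in the nucleus. Malat1 sits in nuclear speckles, where splicing factors gather, and its 3′ end is cut by RNase P, which releases a small tRNA-like RNA. Neat1 builds the paraspeckle. Miat, also called Gomafu, forms its own nuclear domain, is found in neurons and neural progenitors, and carries repeats of the intron branch point sequence, which bind the splicing factor SF1. Tug1 is required in the developing retina, and Meg3 is the maternally expressed RNA of the imprinted Dlk1-Dio3 region. Libraries of small RNA capture only short fragments of such transcripts, so the counts below measure fragments and not transcript levels.

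The Miat locus lies at chr5:112213228-112229395 (minus strand, GRCm38), and its repeats are shown because they are the feature that sets Miat apart from the other members. Both stretches come from exon 7 of the GENCODE transcript matched to the 8760-base Miat entry, at chr5:112217314-112217455 and chr5:112216757-112216807 (minus strand), and capitals mark the motif TACTAAC.

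Miat upstream repeats: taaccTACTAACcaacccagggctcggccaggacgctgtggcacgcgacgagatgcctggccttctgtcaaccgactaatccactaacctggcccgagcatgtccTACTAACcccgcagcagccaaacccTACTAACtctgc

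Miat downstream repeats: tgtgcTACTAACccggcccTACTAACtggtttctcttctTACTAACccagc

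The sense strand of Miat holds 6 copies of TACTAAC. The transcripts matched to the entries of the other 4 members hold 0 copies in sense, and only the longest Meg3 model holds 1 on the opposite strand. Of 241 GENCODE long non-coding transcripts of 5000 to 12000 bases, 16.6% hold at least 1 copy in sense. As many as 6 are held by 2 of them, and both are Miat transcripts; the most outside Miat is 2. The deposited counts do not say where along Miat a fragment lay, so the motif is a description of the RNA only.

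A pair of other sequences mark where short fragments of Malat1 and Tug1 could come from. Malat1 lies at chr19:5795690-5802672 (minus strand) and holds the tRNA-like RNA Mascrna at chr19:5795924-5795981, as annotated by RefSeq. Tug1 lies at chr11:3639785-3649673 (minus strand), and the first exon of its 4731-base entry is at chr11:3648753-3648812.

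Mascrna: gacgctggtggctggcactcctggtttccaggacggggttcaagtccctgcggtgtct

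Tug1 first exon: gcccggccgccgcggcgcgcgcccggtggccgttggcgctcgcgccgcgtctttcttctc

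Neat1 lies at chr19:5824708-5845478 (minus strand), on the same chromosome as Malat1. Its only entry, of 3177 bases, is the short isoform, and the long paraspeckle isoform was not analysed here. Meg3 lies at chr12:109541001-109571726 (plus strand). The 2 miRNAs annotated inside the Meg3 gene, Mir770 and Mir1906-1, are at 0 in all 12 libraries.

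Total counts were 34263 to 65240 in control libraries, 83544 to 164537 in those labelled Miat knockdown and 23318 to 154111 in those labelled Mtdh knockdown. The ribosomal RNA precursor Rn45s took 53.0% to 55.4%, 70.2% to 82.7% and 63.7% to 76.7% of them, so each rate was computed as counts per 1000000 (CPM) of all counts and of the counts outside Rn45s. Outside Rn45s, 15327 to 29076 counts remained in the control, 14532 to 46942 with Miat guides and 7741 to 38734 with Mtdh guides. The 5 RNAs together held 0.184% to 0.701% of all counts, which is 43 to 586 counts a library. Intervals and floors below cover counting error only, and a count of 0 was set to a floor of 3 counts. Among marker lists, 5 of 6 listed progenitor RNAs are in the tables. Their counts fell on Mir9 precursors, apart from 1 Rmst count in 96-1, and Sox2ot was at 0 in every library. The sums were 2897 to 4031 CPM outside Rn45s in the control, 1489 to 2918 with Miat guides and 129 to 1692 with Mtdh guides. Mir17hg and 2 miRNA precursors inside it, chosen for the granule lineage, summed to 2439 to 2855, 3582 to 7950 and 1289 to 4828. A fragment of a precursor may also be counted in Mir17hg, so these sums can count it more than once. The 3 neuronal Mir124 precursors, and Mir142 and Mir223 of immune cells, were at 0 in every library. Vessel and muscle precursors did not exceed 3 counts.

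The sgMiat-6 libraries stand apart from the other 10 in more than Miat. Xist, the RNA that coats the inactive X chromosome of female cells, had 30 counts in 6-1 and 19 in 6-2. It had 1 count in control 2 and none in the other 9 libraries. The guide and whatever else sets these libraries apart cannot be told apart, so results by target are also given without them.

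Miat, the target of 2 of the guides, had 0, 1, 1 and 1 counts in controls 1 to 4. The sgMiat-6 libraries had 49 and 30 Miat counts, and those of sgMiat-96 had 1 and 0. In the Mtdh libraries it was at 0 except for 2 counts in 2-1. Only both sgMiat-6 libraries exceed 2 counts, in the direction opposite to their label. In bulk libraries, fewer cells of a type and less RNA per cell cannot be told apart. As CPM outside Rn45s these are 1044 and 831 with sgMiat-6 against 0 to 49.8 in the control, and in this comparison 22.5% of 204 tested symbols lay wholly above the control. The ratio of the summed rates was 27.6 outside Rn45s (95% exact interval 9.10 to 137) and 17.6 over all counts (5.80 to 87.1). With sgMiat-96 the ratio outside Rn45s was 0.736, and its interval of 0.0140 to 9.16 shows neither depletion nor its absence at this depth.

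In the edgeR quasi-likelihood fit with 1 term per guide, 204 symbols had enough counts to be tested, 4 of the 5 members among them. Miat and Xist passed the low-count filter only through the sgMiat-6 libraries, and the Miat excess there is what prompted the comparison, so their fitted values with sgMiat-6 are given as descriptions with no test. Meg3 did not pass the filter. Neat1 passed it through control 1 (263 CPM of all counts), on the high side of the sgMiat-6 contrast, and 1-2 (143 CPM). With only the control and sgMiat-6 libraries Neat1 did not pass, so its adjusted p depends on libraries outside that comparison. With sgMiat-6, 18.1% of the tested symbols were called against control (37 of 204; 14.2% higher and 3.92% lower). The fitted log2 fold change of Miat was 4.94 (SE 0.95). Each edgeR SE is the size of the log2 fold change divided by the square root of the F statistic. Tug1 rose by 1.41 (SE 0.42, adjusted p = 0.0242), and Neat1 fell by 5.77 (SE 1.67, adjusted p = 0.0211). Malat1, at 0.03 (SE 0.41, adjusted p = 0.964), did not pass, and its sign turned with DESeq2 size factors (-0.26) and library totals (-0.91). The median over all tested symbols was 0.26 in this contrast, and -0.68 when library totals replaced the TMM factors, so sizes depend on the scaling. The Tug1 call did not hold with DESeq2 size factors (1.10, adjusted p = 0.0793), with DESeq2's own test (1.10, adjusted p = 0.0872) or with library totals (0.45, adjusted p = 0.560). Nor did the edgeR call hold with totals outside Rn45s (1.08, adjusted p = 0.0650), with no low-count filter (1.11, adjusted p = 0.658) or with a minimum count of 5 (1.23, adjusted p = 0.0686). It was also lost without control 1 (1.13), control 2 (0.95), control 3 (1.28), 6-1 (1.68) or 6-2 (1.28), and without 6-2 its adjusted p was 0.159.

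**Figure D1:**
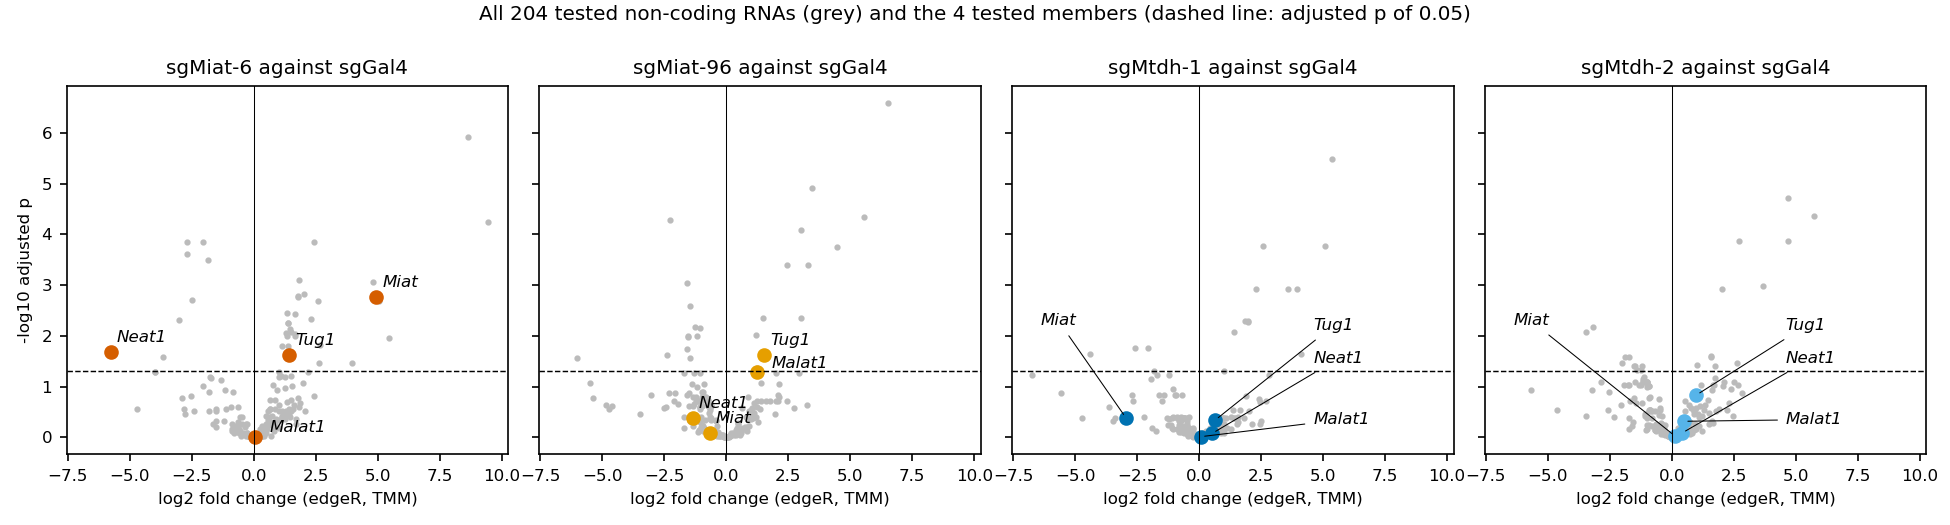
Log2 fold change (x axis) against -log10 of the adjusted p (y axis) for 204 tested non-coding RNAs, 1 panel per guide against the sgGal4 control; the dashed line is an adjusted p of 0.05. With sgMiat-6, Tug1 lies above the line on the right and Neat1 above it on the left, while Miat, at 4.94, was tested only because these libraries carried it past the filter; with sgMiat-96, Tug1 lies above it and Malat1 just below it, and with both Mtdh guides all 4 members lie below it.

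The guides of Miat were also compared directly. Here 19.6% of tested symbols were called, 13.7% higher with sgMiat-6. As descriptions, the fitted difference of sgMiat-6 minus sgMiat-96 was 5.61 for Miat (SE 1.31) and 7.20 for Xist on the log2 scale. Xist was at 0 in both sgMiat-96 libraries. Against the floor of 3 counts there, its summed rate with sgMiat-6 was 7.75-fold higher outside Rn45s. The exact interval of the ratio, which also covers counting error with sgMiat-6, has a lower limit of 6.06. Tug1 did not differ past the threshold, at -0.11 (SE 0.49, adjusted p = 0.892). Malat1 was at -1.19 (adjusted p = 0.0875), and at -1.85 with DESeq2 size factors (adjusted p = 0.0119), and Neat1 was at -4.40, also short of the threshold.

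A ratio within a library does not depend on how libraries are scaled. Of the counts on the 5 RNAs, Miat held 14.5% in 6-1 and 12.1% in 6-2, against 0% to 0.962% in the control libraries. Summed, 79 counts fell on Miat and 507 on the other 4 RNAs with sgMiat-6 (13.5% on Miat), against 3 and 526 in the control (0.567%). This is an odds ratio of 27.3 (95% exact interval 8.91 to 136). It restates the Miat counts above beside the other members, and its interval leaves out the spread between libraries, which exceeds counting error. Against single members the odds ratio was 33.2 beside Malat1, 13.6 beside Tug1 and 23.9 beside Meg3; beside Neat1 it has no upper bound, since Neat1 was at 0, and its lower limit was 77.2. With sgMiat-96, 1 count fell on Miat and 762 on the others (odds ratio 0.230, interval 0.00438 to 2.88). In these libraries none of the other 4 RNAs had an excess over the control as large as that of Miat.

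**Figure D2:**
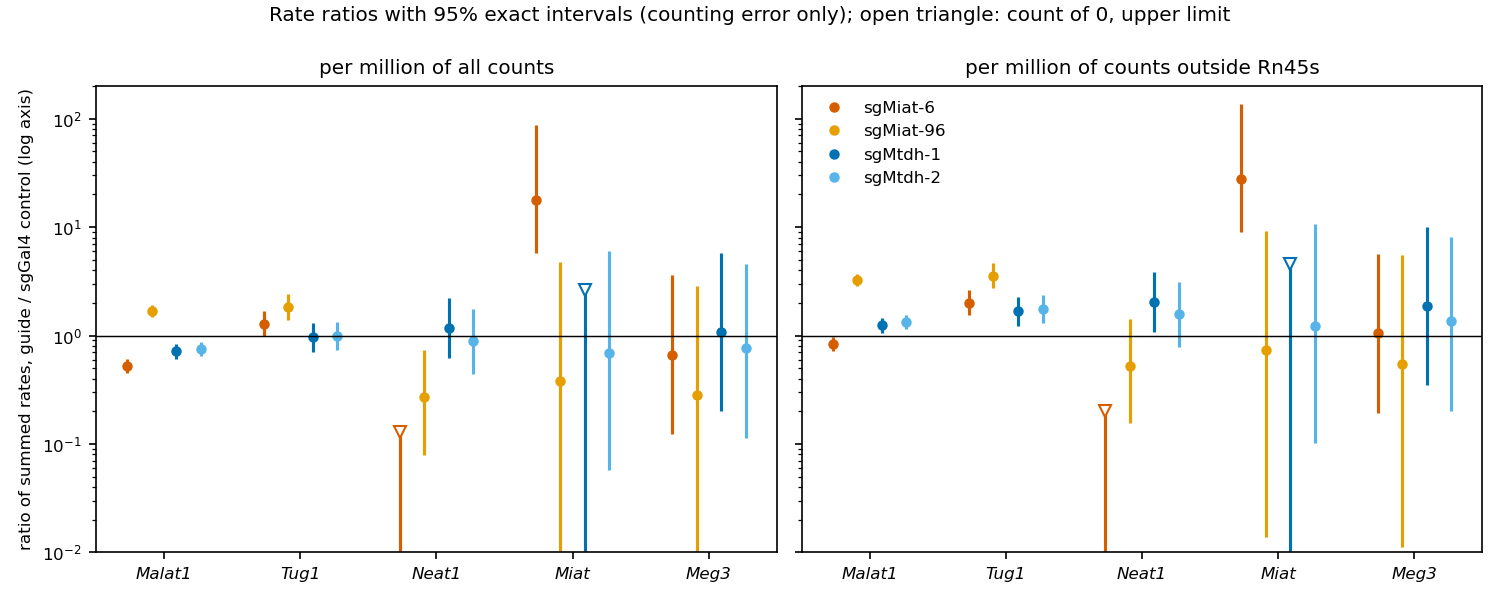
Ratio of the summed rate with each guide to that of the sgGal4 control (log axis) for each RNA, over all counts (left) and outside Rn45s (right); lines are 95% exact intervals for counting error only, drawn as far as the axis reaches, and open triangles mark the upper limit where the count was 0. Miat with sgMiat-6 lies at 17.6 (left) and 27.6 (right), Neat1 with sgMiat-6 has upper limits of 0.128 and 0.201, and most other points lie within a few fold of 1.

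Malat1, the most abundant of the 5, held 51.4% to 82.4% of member counts in a library. Its rates outside Rn45s were 5089, 3878, 3882 and 5640 CPM in the control libraries and 4154 and 3518 with sgMiat-6. In the sgMiat-96 libraries they reached 19439 and 8395, and the Mtdh libraries had 3746 (1-1), 6222 (1-2), 5794 (2-1) and 7575 (2-2). The sgMiat-6 values overlap with the control, and both sgMiat-96 libraries lie above every control, as 23.5% of 204 tested symbols did, with 96-1 far above 96-2. The summed rate with sgMiat-6 was 0.828 times the control outside Rn45s (95% exact interval 0.713 to 0.961) and 0.528 times over all counts (0.455 to 0.613), both below 1 where Miat was above it.

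With sgMiat-96, where 11.8% of 204 symbols were called (5.88% higher), Malat1 was at a log2 fold change of 1.23 (SE 0.39, edgeR adjusted p = 0.0513), just short of the threshold. With DESeq2 size factors it was 1.59 (adjusted p = 0.00864), and it also passed with Rn45s left out of the totals (1.59, adjusted p = 0.00411). It rests on 96-1: without that library the value was 0.43 (adjusted p = 0.629), and the ratio of summed rates over all counts changed from 1.69 to 0.680. Over the 2 groups of 4, the mean Malat1 rate outside Rn45s was 8877 ± 7367 with Miat guides and 4622 ± 886 in the control (SD, n = 4, two-sided exact permutation p = 0.371).

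Tug1 had 15, 12, 20 and 47 counts in the control libraries, summed over its entries. The sgMiat-6 libraries had 91 and 90, the sgMiat-96 libraries 98 and 53, and the Mtdh libraries 11, 73, 57 and 33. The 5127-base and 6719-base entries had equal counts in every library except 6-2 (8 and 11). The Tug1 sums, and the rates and fits made from them, can therefore count a fragment more than once. Outside Rn45s the control rates were 979, 535, 995 and 1616 CPM. They were 1939 and 2493 with sgMiat-6 and 3944 and 3647 with sgMiat-96, so all 4 libraries labelled Miat knockdown lie above all 4 controls. On this scale 11.9% of 143 tested symbols lay wholly above the control in that comparison. The Mtdh libraries, at 1421 (1-1), 1885 (1-2), 1619 (2-1) and 2659 (2-2), overlap with the control.

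Tug1 was the member with calls for both Miat guides. With sgMiat-96 it rose by a log2 fold change of 1.51 (SE 0.42, edgeR adjusted p = 0.0240), beside 1.41 with sgMiat-6; the contrasts share their control libraries. In the fit by target, where 143 symbols were tested and 14% were called for Miat guides (10.5% higher), Tug1 rose by 1.52 (SE 0.41, adjusted p = 0.0224), and without both sgMiat-6 libraries it rose by 1.79 (adjusted p = 0.0131). Malat1, the only other member tested there, was at 0.91 (adjusted p = 0.246), and at 1.53 (adjusted p = 0.0159) without both sgMiat-6 libraries. That setting was chosen after seeing the data and leaves only 96-1 and 96-2 with Miat guides. It therefore repeats the sgMiat-96 contrast and is no separate check by target. The sgMiat-96 call of Tug1 was lost without control 3 (1.46, adjusted p = 0.0510), 96-1 (1.37, adjusted p = 0.242) or 96-2 (1.82, adjusted p = 0.0553), and with library totals (0.93, adjusted p = 0.188). The call by target was lost with library totals (0.71, adjusted p = 0.282), without control 1, 2 or 3 (adjusted p 0.130, 0.140 and 0.120) or without 96-1 or 96-2 (0.0921 and 0.0913). In the exact permutation test of 4 libraries against 4, Tug1 averaged 3006 ± 948 CPM outside Rn45s with Miat guides and 1031 ± 445 in the control (SD, n = 4, p = 0.0286, the smallest this design allows, adjusted p = 0.128 over 143 symbols). Over all counts the exact permutation p was 0.114 (n = 4).

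**Figure D3:**
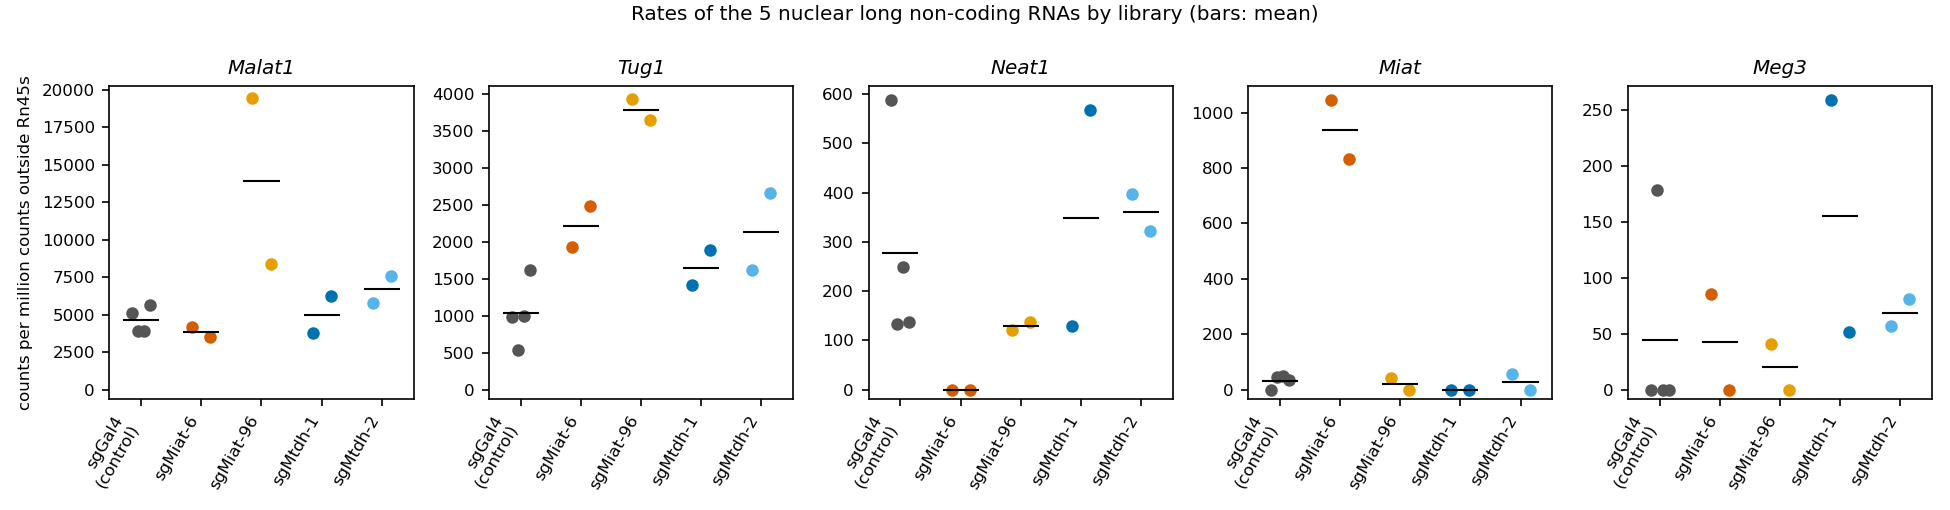
CPM outside Rn45s (y axis, a linear scale of its own in each panel) for the 5 RNAs, by guide; points are libraries and bars are means. Tug1 lies above the control in all 4 libraries with Miat guides (1939 to 3944 against 535 to 1616), Miat is high in both sgMiat-6 libraries only, and Neat1 is at 0 there.

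The Tug1 fragments were unevenly spread over its transcript models. The 4731-base entry had 477 counts over all libraries, while the 5127-base entry, which shares all of its remaining bases, had 60. In the GENCODE models matched to these entries, the 4731-base transcript has 60 bases that neither of the other Tug1 models holds, which are the first exon printed above. If a fragment is counted in every entry that contains it, as the identical Miat entries show for that gene, 417 of 477 counts (87.4%) are missing from the 5127-base entry. They would then touch that exon or a splice junction that the 5127-base entry lacks. The models matched to the 4731-base and 5127-base entries have 4 and 3 exons, and the second holds 452 bases outside the first. Positions of fragments were not tested, since the files give none.

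The excess was followed library by library. Outside Rn45s it was 979, 401, 547 and 997 CPM in the control libraries, and 1683 and 1745 with sgMiat-6. The sgMiat-96 libraries had 3220 and 2408, and the Mtdh libraries 646, 878, 1363 and 725. The 4 libraries with Miat guides lie above every control, as 11.9% of 143 tested symbols did outside Rn45s, and those with Mtdh guides overlap with the control. The counts of the 5127-base entry were few, at 0, 1, 3 and 6 in the control and 4, 8, 6 and 6 with Miat guides.

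**Figure D4:**
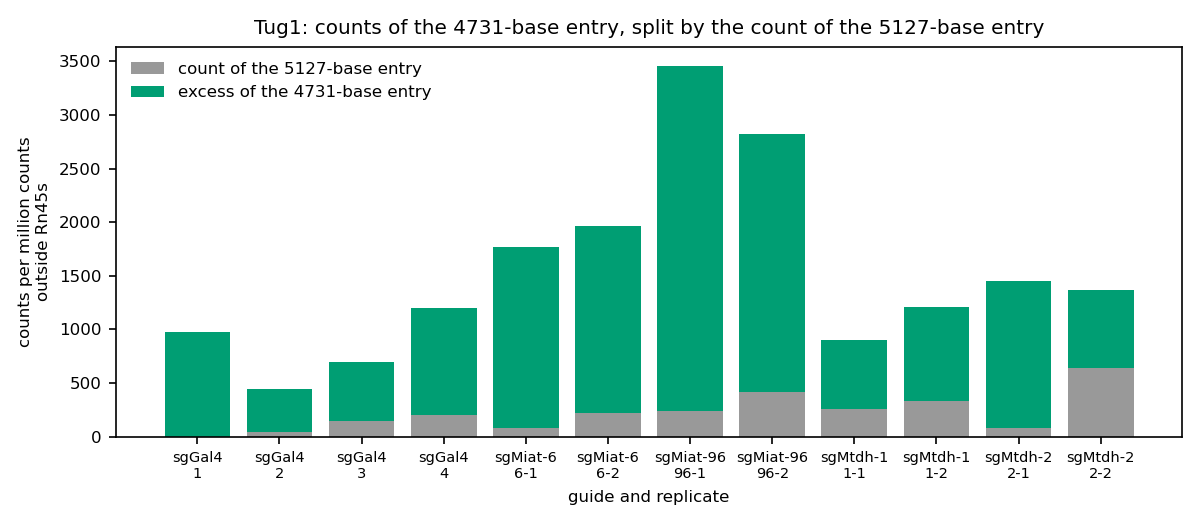
Counts of the 4731-base Tug1 entry as CPM outside Rn45s for each library (stacked bars), split into the count of the 5127-base entry (grey) and the excess over it (green). The excess makes up 52.9% to 100% of each bar and is highest in the sgMiat-96 libraries, at 3220 and 2408 CPM.

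Neat1 went the other way from Miat with sgMiat-6. The control libraries had 9, 3, 5 and 4 Neat1 counts, the sgMiat-96 libraries 3 and 2, and the Mtdh libraries 1, 22, 14 and 4. Both sgMiat-6 libraries had 0 Neat1 counts, below every control as 19.6% of 204 tested symbols were outside Rn45s, and 6-1 is the deepest library outside Rn45s. Against the floor of 3 counts over both libraries, the summed rate was 10.5-fold below control over all counts and 6.69-fold below it outside Rn45s. This floor leaves out the counting error of the control, so these values are not lower bounds. The exact interval of the ratio to control, which covers both errors, reaches up to 0.128 over all counts and 0.201 outside Rn45s. The fitted value and its SE depend on the prior count where a group is at 0, and they give no bound. The fitted fall with sgMiat-6 was lost without 6-1 (-5.63, adjusted p = 0.145) or 6-2 (-5.66, adjusted p = 0.0992), which leaves a single library of that guide.

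The Neat1 rate with sgMiat-96 was 0.271 times the control over all counts (95% exact interval 0.0799 to 0.739) and 0.526 times outside Rn45s (0.155 to 1.43), and edgeR gave a log2 fold change of -1.37 (adjusted p = 0.421). All 4 libraries labelled Miat knockdown lie below all 4 controls over all counts (0 to 35.9 against 61.3 to 263 CPM). On that scale 30.1% of 143 tested symbols lay wholly below the control, so this ordering is common in the table. The exact permutation p was 0.0286 over all counts and 0.0857 outside Rn45s (n = 4, two-sided, smallest possible 0.0286). Neat1 did not pass the low-count filter of the fit by target and has no adjusted p there.

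Meg3 was near the detection limit everywhere. Summed over its overlapping entries it had 0, 4, 0 and 0 counts in the control libraries and 4, 0, 1 and 0 with Miat guides. With Mtdh guides it had 2, 2, 2 and 1. No more than 2 counts fell on any single Meg3 entry in a library, and since the 11460-base and 11472-base entries overlap nearly throughout, most sums count a fragment more than once. No difference between guides was detectable at this depth: the ratio outside Rn45s was 1.05 with sgMiat-6 (95% exact interval 0.195 to 5.62) and 0.552 with sgMiat-96 (0.0112 to 5.58).

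With Mtdh guides no member was called. The share of the 204 symbols called was 7.84% (sgMtdh-1) and 10.3% (sgMtdh-2). The nearest was Tug1 with sgMtdh-2, at a log2 fold change of 0.99 (SE 0.44, edgeR adjusted p = 0.147), and in the fit by target Tug1 was at 1.01 (SE 0.42, adjusted p = 0.164, 9.79% of 143 symbols called). Malat1 was at 0.06 with sgMtdh-1 and 0.48 with sgMtdh-2, Neat1 at 0.52 and 0.41, and their adjusted p was 0.482 or higher. The sign of the Malat1 ratio with these guides depends on Rn45s. It was 0.714 and 0.754 over all counts but 1.24 and 1.34 outside Rn45s. Between sgMtdh-1 and sgMtdh-2 edgeR called 0 symbols, or 0% (23 of 204 had an unadjusted p under 0.05). Mtdh encodes a protein and its transcript was not analysed here.

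Compared per kilobase, the order of levels in the control was Malat1 at 301 ± 50.8 CPM of all counts per kilobase, Tug1 at 79.6 ± 30.2, Neat1 at 39.5 ± 29.9, Miat at 1.69 ± 1.19 and Meg3 at 0.894 ± 1.79 (SD, n = 4, the entry of each gene with most counts). Tug1 and Neat1 overlap within their spread, as do Miat and Meg3. With sgMiat-6, Miat reached 31.1 ± 4.08 (n = 2), above the 0 of Neat1 and below Tug1 at 115 ± 12.1. With sgMiat-96 the order was that of the control except that Miat (0.683) and Meg3 (0.522) cannot be ranked. With sgMtdh-1 and sgMtdh-2, Malat1 was at 201 ± 32.4 and 294 ± 142, Tug1 at 64.0 ± 0.714 and 88.2 ± 24.0, and Neat1 at 29.2 ± 22.2 and 33.0 ± 5.48 (SD, n = 2). Miat was at 0 and 0.754 and Meg3 at 2.15 and 0.288 there.

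Other long non-coding RNAs of the nucleus were read from a fixed list. Of 26 listed, 21 are in the tables, 16 had a count and 3 passed the low-count filter, Xist, Kcnq1ot1 and Mir17hg. With sgMiat-6, where 14.2% of all tested symbols were called higher, Mir17hg, the host of the Mir17-92 cluster, rose by a log2 fold change of 1.66 (SE 0.43, adjusted p = 0.00988). Xist, which passed the filter only through these libraries, had a fitted value of 5.47 (SE 1.38), given with no test. Mir17hg had 136 and 91 counts with sgMiat-6 and 15 to 32 in the control. These counts can include fragments of the miRNAs of the cluster inside it, which were not separated from the host, so they may not measure the long RNA. Kcnq1ot1, an imprinted antisense RNA that silences its neighbours, had 26 and 25 counts with sgMiat-6 and 6 to 16 in the control, and did not pass (0.75, adjusted p = 0.376). With sgMiat-96, sgMtdh-1 and sgMtdh-2, where 11.8%, 7.84% and 10.3% of all tested symbols were called, 0 of the 3 passed.

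RNAs known mostly from the cytoplasm or as hosts of small nucleolar RNAs gave a comparison list of 12, of which 8 are in the tables and Gas5, Snhg8 and Dancr were tested. With sgMiat-6, 0 of 3 passed, beside 18.1% of all tested symbols, and their median log2 fold change was 1.13 beside 0.26 over all tested symbols. So small a list shows no contrast with the nuclear one. With sgMiat-96 only Gas5, a host of small nucleolar RNAs, fell (-1.28, SE 0.29, adjusted p = 0.00662).

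Of 10 small nuclear and nucleolar RNAs, 6 were tested. With sgMiat-6, beside 18.1% of all tested symbols called, only Rpph1, the RNA of the RNase P that cuts Malat1, rose (1.80, SE 0.36, adjusted p = 0.00172). It also rose with sgMtdh-1 (2.57, adjusted p = 0.000167) and sgMtdh-2 (2.02, adjusted p = 0.00120), and was at 1.11 with sgMiat-96 (adjusted p = 0.0539). Scarna2, a Cajal body RNA, rose with sgMiat-96, sgMtdh-1 and sgMtdh-2 by 3.02, 3.60 and 3.68 (adjusted p 0.00438, 0.00121 and 0.00103), and Rmrp, the RNA of RNase MRP, fell with sgMiat-96 (-1.05, adjusted p = 0.00688).

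The RNAs whose rates were most like those of Miat over the 12 libraries (Pearson r of log2 of the rate outside Rn45s plus 10) were Xist (0.879), Cd68 (0.870), Snord32a (0.865), Snord57 (0.863) and Snord100 (0.852). For Malat1 they were Snord67 (0.756), Gm20125 (0.721), Gm6548 (0.699), Snord37 (0.691) and Rprl3 (0.677). These values describe 12 libraries that differ in depth, and those of Miat rest on the 2 sgMiat-6 libraries.

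The Cd68 entry is a non-coding variant of 813 bases of a gene whose protein marks macrophage lysosomes. It had 134 and 99 counts with sgMiat-6 and 0 in each of the other 10 libraries, while the immune miRNAs Mir142 and Mir223 were at 0 in all 12. Searched over the whole table, with limits set after the counts were seen, 5 symbols had at least 10 counts in both sgMiat-6 libraries and at most 2 in each of the other 10: Miat, Xist, Cd68, Fuom and 9430037G07Rik. Fuom, a fucose mutarotase gene, had 19 and 17 counts against 0 elsewhere, and 9430037G07Rik had 27 and 12 against 0 to 2. By the same limits sgMiat-96, sgMtdh-1 and sgMtdh-2 had 0 such symbols. In the other direction, 2 symbols were at 0 in both sgMiat-6 libraries and counted in all 10 others, Neat1 and Gm6793. By the same rule sgMiat-96 had 1 such symbol, Snord33, and sgMtdh-1 and sgMtdh-2 had 0. The sgMiat-6 libraries hold 46942 and 36102 counts outside Rn45s, the first the most of any library. The part of Xist-bearing cells, of Cd68-bearing cells or of depth in the Miat excess was not tested.

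**Figure D5:**
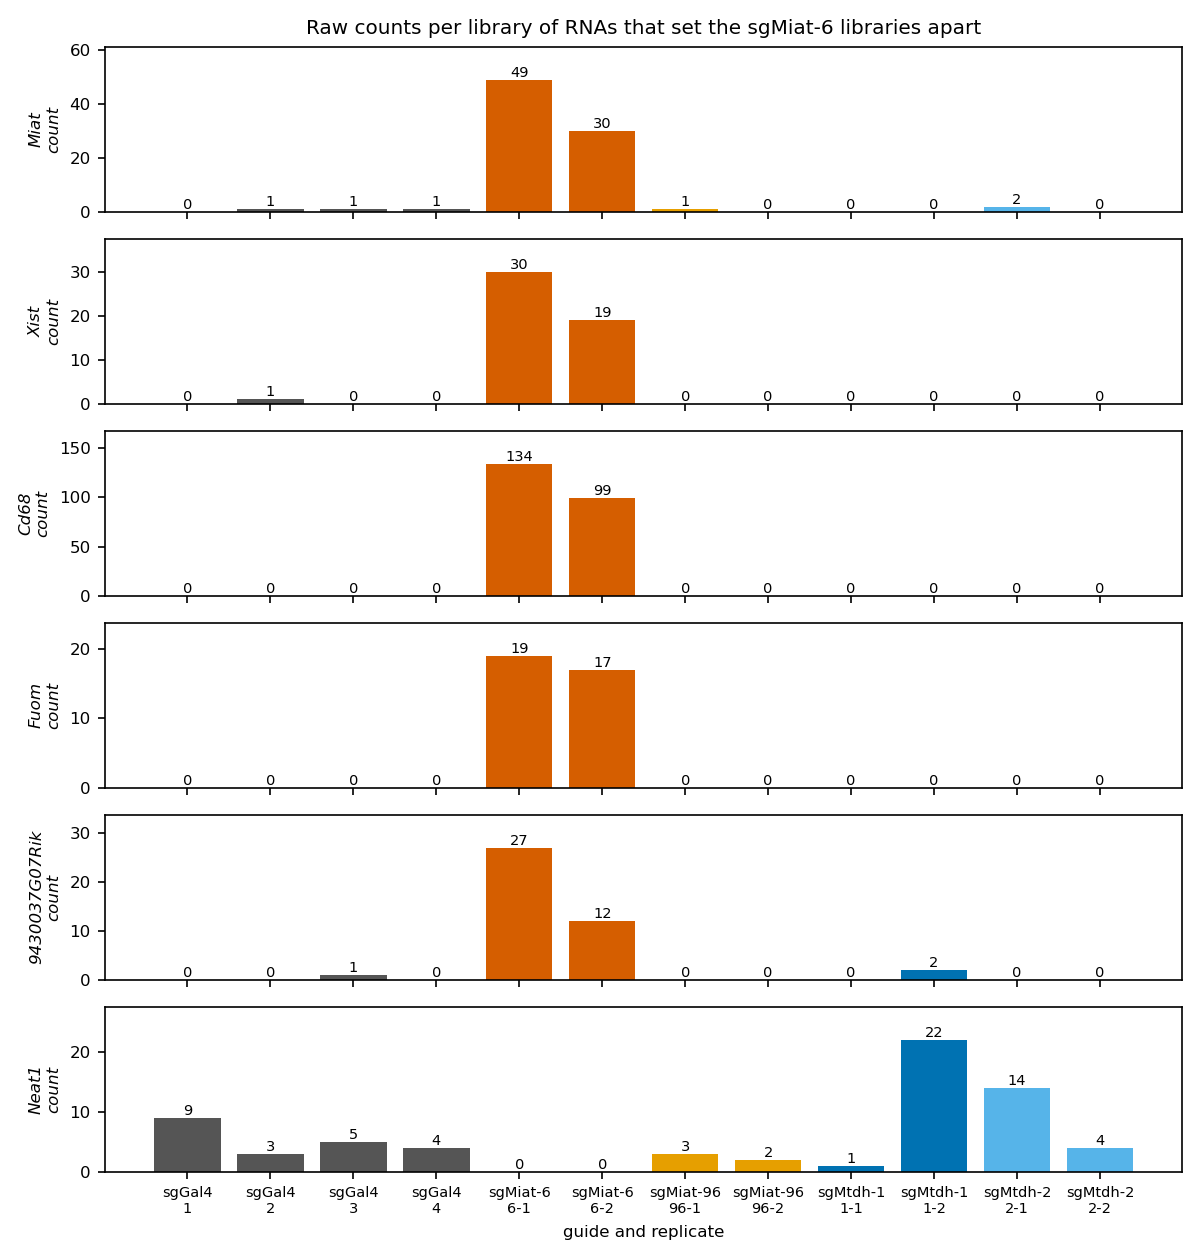
Raw counts in each library (bars, y axis from 0, a scale of its own in each panel) of Miat, Xist, Cd68, Fuom, 9430037G07Rik and Neat1, by guide and replicate. The first 5 are at 12 or more in both sgMiat-6 libraries and at 2 or less elsewhere, and Neat1 is at 0 in both sgMiat-6 libraries and at 1 or more in the other 10.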

How the data were processed

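Each of the 12 small RNA libraries has a deposited table of raw counts by RefSeq non-coding transcript, per the file headers, beside FPKM and TPM values by the authors. FPKM served only to derive transcript lengths, and TPM was not used. The submitters' processing notes name STAR, GRCm38 and mm10; the counter, its strand setting, the trimming and the handling of multiply aligned reads were not given in the sources used here. Libraries of a guide or of the control differed by more than counting noise (chi-square per degree of freedom 3.04 to 29.2), and all were kept separate. This spread does not show whether they are technical repeats. Identical entries of a symbol were counted once and other entries summed. The test was edgeR 4.0.16 under R 4.3.3 (filterByExpr with a minimum count of 10, TMM, quasi-likelihood, 1 term per guide or per target). It was two-sided, with Benjamini-Hochberg at 0.05 within a contrast over all symbols tested. The fit was also run on simulated counts with a lower dispersion than in these data (0.187 in the fit by guide), so that run does not vouch for the calls. Exact Poisson, conditional binomial, Fisher and permutation tests used R, summaries pandas 2.3.3. DESeq2 1.42.0 was an alternative. Named genes were the 5 members, the tested symbols of fixed lists and, for Miat and Malat1, the 5 most correlated symbols; the members and lists were chosen with earlier results of these data known. Sequences and coordinates come from GENCODE M21 transcripts and RefSeq annotation on GRCm38.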

Additional observations from a re-analysis of the deposited data

Results flagged for a closer look

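The guides of Miat differed in their fitted values. The difference of sgMiat-6 minus sgMiat-96 was 5.61 on the log2 scale for Miat and 7.20 for Xist. Both RNAs entered the fit only through the sgMiat-6 libraries, so these are descriptions. With each library left out in turn, the fitted difference ranged from 4.84 to 7.89 for Miat and from 6.96 to 7.33 for Xist. A control library stood apart from the other 3: Meg3 in control 2, at 178 CPM outside Rn45s against 0. Its 4 counts are 2 on each of 2 entries that overlap nearly throughout. Chance gives such a gap in about 1 of 20 groups of continuous values. Beside values of 0 in the other 3, any count would give such a gap, so that rate does not hold here.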

How the results depend on the processing

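Replicate numbers paired nothing (correlations of same-numbered deviations -0.37 to 0.15). With the replicate block, Miat with sgMiat-6 was 5.09, Neat1 -6.27 (adjusted p = 0.0859), Tug1 1.73 (0.0859) and Malat1 -0.030 on the log2 scale, Tug1 was 1.85 with sgMiat-96 (0.0589) and 1.98 by target (0.106), and Neat1 with sgMtdh-2 was -0.10; symbols called were 15 for sgMiat-6, 3 for sgMtdh-1, 5 for sgMtdh-2, 1 for Miat guides, 0 for Mtdh guides and 2 for Mtdh against Miat.

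Tug1 with sgMiat-6 was 1.10 with DESeq2 size factors and with DESeq2's test, 0.45 with library totals, 1.08 with totals outside Rn45s, 1.11 with no low-count filter and 1.23 with a minimum count of 5. Its call was lost at each of these settings. Malat1 with sgMiat-6 was -0.26 with DESeq2 size factors and DESeq2's test, -0.91 with totals, -0.27 outside Rn45s, -0.22 with no filter, -0.11 with a minimum of 5 and -0.48 with only the libraries compared. With library totals, Malat1 and Neat1 with sgMtdh-1 were -0.57 and -0.20, Miat, Malat1 and Neat1 with sgMtdh-2 were -0.59, -0.054 and -0.23, and Malat1 by target was -0.29 with Mtdh guides. Tug1 with sgMiat-96 was 1.67 with no filter (adjusted p = 0.0940), and by target 1.42 with no filter (0.481) and 1.42 with a minimum of 5 (0.0684). The cause was not tested.

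Outside Rn45s the ratios of summed rates were 0.828 (Malat1) and 2.02 (Tug1) with sgMiat-6, and 1.24 and 1.34 for Malat1 with sgMtdh-1 and sgMtdh-2. The odds ratio of Miat with sgMiat-96 was 1.38 beside Neat1 alone and 1.29 beside Meg3 alone. Log2 ratios of mean rates, Mtdh guides against control, were 0.34 for Malat1 and 0.36 for Neat1 outside Rn45s, 0.19 and 0.21 with Rmrp also left out, and -0.066 for Tug1 by its largest entry.

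Symbols called for sgMiat-6 were 22 with no filter and 62 with only the libraries compared. For sgMiat-96 they were 54 with totals, 12 with no filter and 43 with only the libraries compared; for sgMtdh-1, 36 with totals; for sgMtdh-2, 53 with totals, 33 with DESeq2's test and 9 with no filter. Between the Miat guides 14 were called with no filter, and for Mtdh guides 47 with totals. For Mtdh against Miat they were 8 outside Rn45s, 13 with DESeq2's test, 8 with no filter, 2 with only the libraries compared and 3 without both sgMiat-6 libraries, a setting chosen after seeing the data.

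Without each library in turn, log2 values ranged from -0.67 to 0.24 for Malat1 (Mtdh against Miat), -0.26 to 0.24 for Malat1 (sgMiat-6) and -0.49 to 0.52 for Malat1 (sgMtdh-1). They ranged from -2.87 to 0.14 for Miat (sgMiat-96), -2.87 to 0.85 for Miat (sgMtdh-2), -6.01 to -5.16 for Neat1 (sgMiat-6) and -1.17 to 1.18 for Neat1 (sgMtdh-1). Tug1 ranged from 0.95 to 1.73 (sgMiat-6) and -0.56 to 0.14 (between Miat guides). Log2 ratios of mean rates ranged from -0.78 to 0.42 for Malat1 (Miat guides), and with Mtdh guides from -0.15 to 1.06 for Meg3, -0.58 to 0.31 for Neat1 and -0.087 to 0.58 for Tug1. Ratios of summed rates ranged from 0.680 to 2.71 for Malat1 (sgMiat-96), 0.633 to 1.29 for Malat1 (sgMtdh-2), 0 to 1.16 for Meg3 (sgMiat-6), 1.10 to 1.69 for Tug1 (sgMiat-6) and 0.540 to 1.01 for Tug1 (between Miat guides). The odds ratio of Miat with sgMtdh-2 ranged from 0 to 1.27. Symbols called ranged from 9 to 20 (Miat guides), 2 to 13 (Mtdh against Miat), 8 to 26 (Mtdh guides), 22 to 51 (between Miat guides), 14 to 35 (sgMiat-96), 0 to 3 (between Mtdh guides) and 9 to 28 (sgMtdh-2). A library left out leaves 1 of its guide, assumed to vary like the rest. Depth limits Meg3 throughout and Miat outside sgMiat-6.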
